A study of Mus musculus with 15 samples.

Results

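The 42 genes described here act in the cell cycle. They were chosen by symbol, with earlier results of these data known. Of them, 20 have roles in G2 and mitosis and 13 act in DNA replication. A further 6 are G1 genes (the cyclins *Ccnd1*, *Ccnd2*, *Ccnd3*, *Ccne1* and *Ccne2*, and *E2f1*) and 3 are inhibitors of cyclin-dependent kinases (CDKs). All 42 were found among the 35142 genes to which the reads were summed, and all 42 were among the 15360 genes that were tested. RNA-seq was run on the bulk RNA of 15 cultures made from cerebellar cells of wild-type C57BL/6 mouse pups of postnatal day 0-4. At day 14 in vitro, 5 cultures received IL-12p70 (recombinant, murine) at 30 ng/ml and 5 at 100 ng/ml. IL-12p70 is the heterodimeric form of the cytokine. It was left on for 18 h, and 5 cultures were unstimulated. The study asks what IL-12 does to neurons, and the comparisons ask here whether the cell cycle program of these cultures differed with IL-12. No label says whether the 5 cultures of a group came from separate animals or preparations, so the p-values measure the spread between these cultures, which may be technical.

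Between 25746096 and 38435850 reads per culture were assigned to transcripts. GEO's labels call the cells neurons, but the RNA was of whole cultures that held other cells. In unstimulated cultures, 14 microglia markers summed to between 8275 and 11697 TPM (a level scaled for transcript length and depth), 11 astrocyte markers to between 3841 and 4299 TPM and 8 oligodendrocyte markers to between 6669 and 9968 TPM, against 182 to 241 TPM for 15 neuronal markers. *Rbfox3*, which encodes the neuronal protein NeuN, had a median of 3.24 TPM. Markers of T and NK cells summed to between 3.33 and 8.16 TPM in the 15 cultures. In such bulk samples, fewer cells of a type and less RNA per cell cannot be told apart, and which cells carried the cell cycle transcripts was not measured.

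A cell enters the cycle when D-type and then E-type cyclins activate their CDKs in G1, which inactivates the retinoblastoma protein and frees E2F factors to switch on the genes of DNA replication. Genes of mitosis come on later, in G2, through a complex of MuvB proteins with B-Myb and FOXM1 that reads an element called CHR. Cdkn1a (p21), Cdkn1b (p27) and Cdkn2c (p18) restrain the CDKs. Mature neurons have left the cycle, whereas glia, microglia and progenitors in young cerebellar cultures can still divide.

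The promoters of the S-phase and mitotic genes differ in such elements. RefSeq windows of the GRCm38.p6 build, from 250 bases before to 50 bases after a transcription start, were given for 33 of the 42 genes. They were searched on both strands for the CHR element TTTGAA, for the E2F sites TTTCGCGC and TTTGGCGC, and for the CCAAT box CCAAT. None of the 4 strings holds another. TTTGAA was in a window of 11 of 16 mitotic genes (68.8%) and 1 of 11 S-phase genes (9.09%), against 20.2% of the 27025 genes with a window. One or the other E2F string was in 5 of 11 S-phase genes (45.5%; *Mcm3*, *Mcm5*, *Mcm6*, *Mcm7* and *Uhrf1*) and in 1 of 16 mitotic genes (6.25%; *Cdk1*), against 0.929% of all genes. CCAAT was in 14 of 16 mitotic and 9 of 11 S-phase genes, against 41.1% of all genes. Among the 3 G1 genes and 3 inhibitors with a window, none held TTTGAA or an E2F string. A match describes letters in a window and does not show that a factor binds there. The following windows are those of the S-phase and mitotic genes with the lowest false discovery rate (FDR) over both concentrations, with capitals for the letters of the 4 strings, also where they lie on the opposite strand. *Cdk1* was added after its values were seen, as a mitotic gene with all kinds of element.
Rrm2, chr12:24708004-24708303, plus strand: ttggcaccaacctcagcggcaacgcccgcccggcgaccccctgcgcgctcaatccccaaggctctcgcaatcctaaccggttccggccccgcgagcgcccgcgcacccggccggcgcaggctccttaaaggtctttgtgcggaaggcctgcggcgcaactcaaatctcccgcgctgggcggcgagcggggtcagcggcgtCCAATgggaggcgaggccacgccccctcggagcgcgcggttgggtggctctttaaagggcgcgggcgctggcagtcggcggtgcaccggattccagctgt
Mcm2, chr6:88898731-88899030, minus strand: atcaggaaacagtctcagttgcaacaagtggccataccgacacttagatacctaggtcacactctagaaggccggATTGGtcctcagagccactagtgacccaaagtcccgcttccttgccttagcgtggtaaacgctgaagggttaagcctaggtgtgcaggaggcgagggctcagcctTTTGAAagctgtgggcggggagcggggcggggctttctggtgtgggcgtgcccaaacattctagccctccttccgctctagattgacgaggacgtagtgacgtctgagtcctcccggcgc
Uhrf1, chr17:56304063-56304362, plus strand: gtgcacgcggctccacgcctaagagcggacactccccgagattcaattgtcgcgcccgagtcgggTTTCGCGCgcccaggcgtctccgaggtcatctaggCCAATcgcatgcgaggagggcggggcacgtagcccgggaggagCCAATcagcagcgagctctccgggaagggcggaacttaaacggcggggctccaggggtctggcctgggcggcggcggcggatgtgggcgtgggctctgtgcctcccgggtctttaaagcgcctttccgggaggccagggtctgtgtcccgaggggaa
Nusap1, chr2:119618048-119618347, plus strand: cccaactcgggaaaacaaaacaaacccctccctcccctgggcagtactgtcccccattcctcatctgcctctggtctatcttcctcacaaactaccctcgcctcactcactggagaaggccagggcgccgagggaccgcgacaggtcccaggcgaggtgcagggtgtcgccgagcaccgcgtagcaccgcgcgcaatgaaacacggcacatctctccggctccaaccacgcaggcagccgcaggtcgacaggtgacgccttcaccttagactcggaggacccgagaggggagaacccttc
Bub1, chr2:127831810-127832109, minus strand: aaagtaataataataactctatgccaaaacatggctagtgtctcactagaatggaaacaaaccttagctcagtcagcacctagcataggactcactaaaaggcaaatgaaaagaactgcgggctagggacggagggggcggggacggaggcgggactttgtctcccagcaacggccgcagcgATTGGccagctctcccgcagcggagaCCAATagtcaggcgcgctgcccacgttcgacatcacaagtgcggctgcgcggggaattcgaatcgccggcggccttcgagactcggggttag
Cdk1, chr10:69352863-69353162, minus strand: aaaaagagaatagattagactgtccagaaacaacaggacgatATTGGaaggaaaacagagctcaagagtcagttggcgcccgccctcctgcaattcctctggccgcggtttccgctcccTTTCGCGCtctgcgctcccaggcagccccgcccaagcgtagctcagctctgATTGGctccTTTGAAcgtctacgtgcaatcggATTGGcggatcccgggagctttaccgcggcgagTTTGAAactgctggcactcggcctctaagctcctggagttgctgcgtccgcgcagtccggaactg

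*Rrm2* held a CCAAT box 50 bases before the start and none of the other strings. *Mcm2* was the S-phase gene with a TTTGAA, 70 bases before the start. *Uhrf1* carried the E2F string TTTCGCGC 185 bases before the start of the window shown. Its other start, in a window at chr17:56303087-56303386, had CCAAT strings only. The mitotic gene *Nusap1* held none of the 4 strings and *Bub1* held CCAAT boxes only, 42 and 68 bases before the start, so the mitotic genes lowest in FDR were not those with a TTTGAA in these windows. *Cdk1* had TTTGAA 15 and 71 bases and TTTCGCGC 131 bases before its start.

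The cell cycle genes were expressed without IL-12. In unstimulated cultures, the median level ran from 3.87 TPM for *Cdc6*, which loads the replicative helicase, to 236 TPM for *Ccnd1*, cyclin D1. By class, median levels were 6.46 to 77.1 TPM in the mitotic genes (highest *Cdk1*), 3.87 to 192 TPM in the S-phase genes (highest *Pcna*, the sliding clamp of DNA polymerases), 10.1 to 236 TPM in the G1 genes and 37.0 to 169 TPM in the inhibitors (highest *Cdkn1a*). The proliferation marker *Mki67* stood at 26.1 TPM and the mitotic topoisomerase *Top2a* at 67.0 TPM. In the order of levels, the ranges of the 5 cultures overlapped for 29 of the 41 pairs of neighbours. Among the 8 highest (*Ccnd1*, *Pcna*, *Cdkn1a*, *Ccnd3*, *Cdk1*, *Top2a*, *Rrm1* and *Gins2*), no neighbours overlapped. Further down, *Plk1* did not overlap with *Aurkb*, *Aurkb* with *Kif11*, *Aurka* with *Bub1*, *Cenpf* with *Cenpe*, or *Cenpe* with *Cdc6*. Between the 5 unstimulated cultures, the coefficient of variation of a gene was 1.87% to 9.92%. Each gene had at least 156 reads in every culture, the lowest count being of *Cdc6*.

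**Figure D1:**
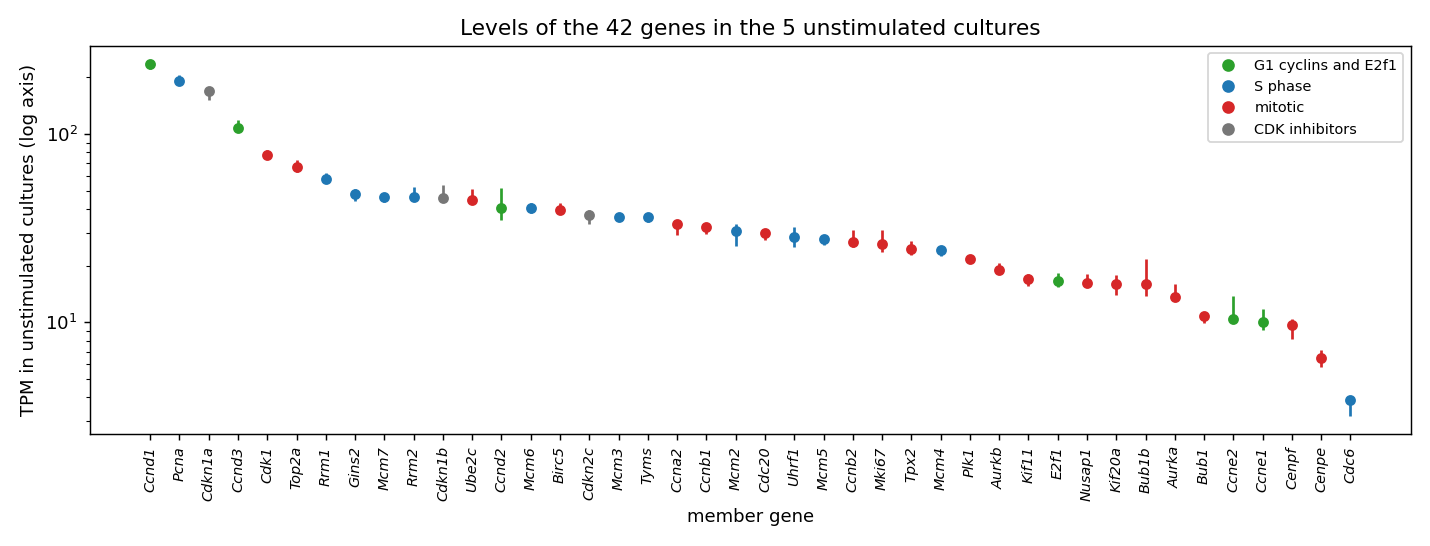
Level of each of the 42 genes in unstimulated cultures in TPM on a log axis, ordered by the median; points are the median and bars the range of the 5 cultures, coloured by class. *Ccnd1* is highest at 236 TPM and *Cdc6* lowest at 3.87 TPM. The 4 classes overlap in level, with medians of mitotic genes at 77.1 TPM or below and of inhibitors at 37.0 TPM or above.

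Stimulation with IL-12 was followed by higher levels of some S-phase genes and G1 cyclins, by small amounts, without a rise of the mitotic genes or a change of the inhibitors that passed the test. At 100 ng/ml, 7 of the 42 genes rose against unstimulated cultures and 0 fell (16.7%, against 9.77% of all tested genes called in either direction, 5.83% higher and 3.93% lower; edgeR's quasi-likelihood test, FDR under 0.05). These were the S-phase genes *Rrm2*, *Mcm2*, *Gins2*, *Uhrf1* and *Cdc6* and the cyclins *Ccnd1* and *Ccne1*. At 30 ng/ml, 4 rose and 0 fell (9.52%, against 7.87% of all tested genes, 4.16% higher and 3.71% lower), namely *Rrm2*, *Ccnd1*, *Ccnd3* and *Ccne1*. The share at 30 ng/ml is thus near that of all genes. For the mean of both concentrations, 7 rose and 1 fell (19.0%, against 11.9% of all tested genes, 6.71% higher and 5.22% lower), and the gene that fell was the mitotic *Nusap1*. The comparisons share the unstimulated cultures. These changes were at most 1.25-fold. None of the 42 genes met a stricter limit on size (a log2 fold change of 0.5 or more and p not above 0.01 before adjustment), which 2.01% of all tested genes met at 100 ng/ml, 1.58% at 30 ng/ml and 1.53% for the mean of both. Every culture lay above every unstimulated one for 6 of the 42 genes at 100 ng/ml (*Rrm2*, *Mcm2*, *Mcm7*, *Uhrf1*, *Ccnd1* and *Ccne1*; 14.3%, against 4.34% of all tested genes) and for 3 at 30 ng/ml (*Rrm2*, *Ccnd1* and *Ccne1*; 7.14%, against 5.44%). Every culture lay below for 1 gene at either concentration, *Bub1* at 100 ng/ml (against 2.84% of all tested genes) and *Nusap1* at 30 ng/ml (against 3.46%). At both concentrations together this held for 3 genes above (against 1.98%) and 0 below (against 1.17%).

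The classes differed in the sign and number of changes. At 100 ng/ml, 5 of 13 S-phase genes were called and all 13 had a positive log2 fold change (median 0.16), while 0 of 20 mitotic genes were called and 16 of the 20 were negative (median -0.04). Over all tested genes the median was -0.004. At 30 ng/ml, 1 of 13 S-phase genes was called with 12 of 13 positive (median 0.07), and 0 of 20 mitotic genes with 16 of 20 negative (median -0.05), beside a median of 0.0001 over all tested genes. Of the 6 G1 genes, 2 were called at 100 ng/ml (median 0.12) and 3 at 30 ng/ml (median 0.19). None of the 3 inhibitors was called (medians -0.003 and 0.02). Under an unadjusted p of 0.05, 9 S-phase and 3 mitotic genes passed at 100 ng/ml, and 5 S-phase and 4 mitotic genes at 30 ng/ml. Of the 15360 tested genes, 3933 passed this limit at 100 ng/ml and 3482 at 30 ng/ml. The difference between the classes was not itself tested.

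**Figure D2:**
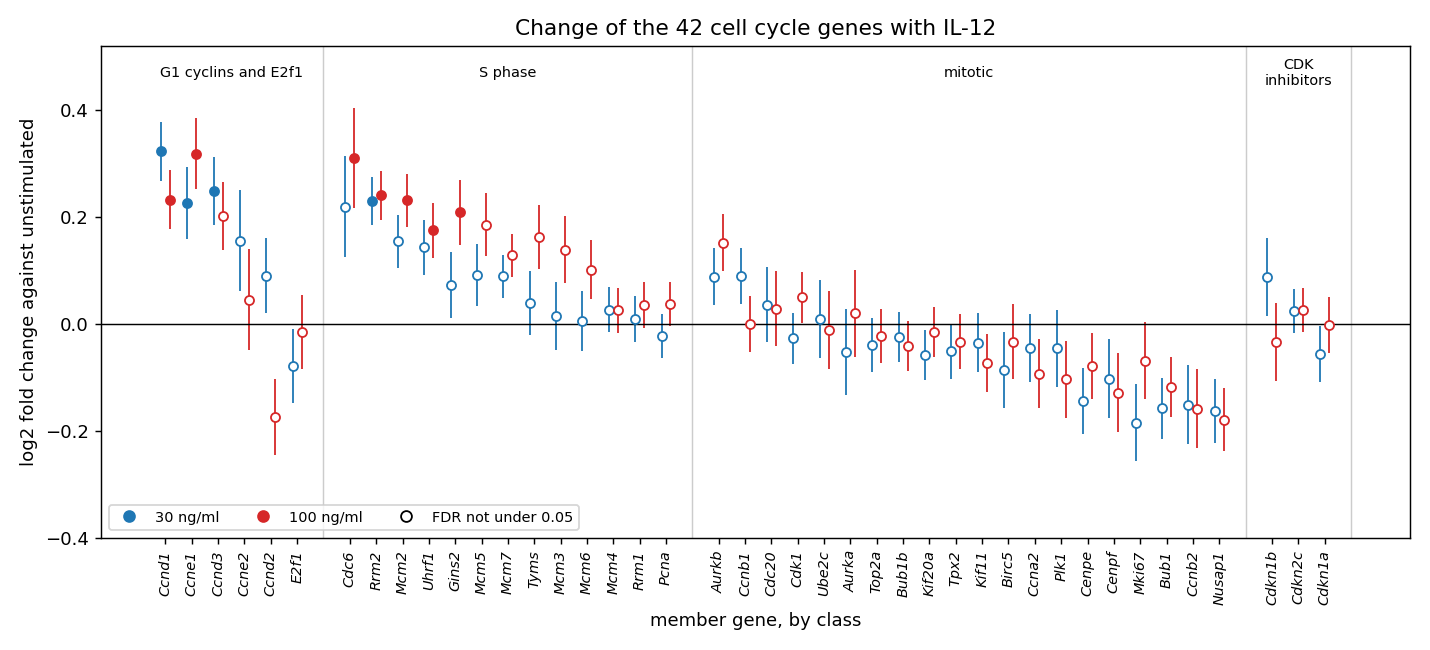
Log2 fold change against unstimulated cultures of each of the 42 genes, by class, at 30 ng/ml (blue) and 100 ng/ml (red) IL-12; bars are standard errors from edgeR and filled points have an FDR under 0.05. Filled points are found among G1 cyclins and S-phase genes above 0, and the mitotic genes scatter around and below 0.

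Cyclin D1, encoded by *Ccnd1* (ENSMUSG00000070348, GRCm39 chr7:144483668-144493662, minus strand), is the cyclin that links growth signals to the cycle in many cells. It had 504, 542, 525, 553 and 523 CPM (counts scaled for depth with TMM factors) in unstimulated cultures 1 to 5. It had 609, 620, 698, 715 and 668 CPM at 30 ng/ml and 593, 645, 683, 619 and 569 CPM at 100 ng/ml. Each of the 10 stimulated cultures lay above each unstimulated one. The log2 fold change was 0.32 ± 0.06 (SE; FDR = 0.0020) at 30 ng/ml and 0.23 ± 0.06 (SE; FDR = 0.014) at 100 ng/ml, or 1.25-fold and 1.17-fold, and the concentrations differed by -0.09 (FDR = 0.52), which misses the threshold.

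Cyclin E1, encoded by *Ccne1* (ENSMUSG00000002068, GRCm39 chr7:37797404-37808264, minus strand), activates CDK2 at the entry to S phase. Its level was 9.77, 11.01, 10.92, 11.04 and 10.59 CPM in unstimulated cultures, 11.6, 13.0, 12.1, 14.3 and 11.3 CPM at 30 ng/ml and 14.2, 12.5, 13.3, 13.5 and 13.0 CPM at 100 ng/ml. Again the 10 stimulated cultures did not overlap with the unstimulated ones, although the lowest, 11.3 CPM at 30 ng/ml, was close to the highest unstimulated value of 11.04 CPM. The log2 fold change was 0.32 ± 0.07 (SE; FDR = 0.0064) at 100 ng/ml and 0.23 ± 0.07 (SE; FDR = 0.047) at 30 ng/ml. The call at 30 ng/ml was kept under 7 of 24 alternative settings at the same FDR, and that at 100 ng/ml under all 24.

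*Ccnd3*, cyclin D3, had 109, 121, 116, 117 and 116 CPM in unstimulated cultures, 139, 120, 133, 150 and 145 CPM at 30 ng/ml and 141, 120, 149, 130 and 125 CPM at 100 ng/ml. Replicate 2 of each concentration lay within the unstimulated range and the others above it. The log2 fold change was 0.25 ± 0.06 (SE; FDR = 0.023) at 30 ng/ml and 0.20 ± 0.06 (SE; FDR = 0.053) at 100 ng/ml. The call at 30 ng/ml was kept under 18 of 24 alternative settings. It was lost, with an FDR of 0.051 to 0.061, with counts rebuilt from TPM and without replicate 1, 4 or 5 of that group or unstimulated replicate 1 or 3. The third D-type cyclin, *Ccnd2*, stood at 0.09 (FDR = 0.49) on the log2 scale at 30 ng/ml, against -0.17 (FDR = 0.13) at the higher concentration. *Ccne2*, cyclin E2, and *E2f1* had log2 fold changes between -0.08 and 0.16 at either concentration with an FDR of 0.35 or more.

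Among the S-phase genes, *Rrm2* (ENSMUSG00000020649, GRCm39 chr12:24757811-24764145, plus strand) encodes the small subunit of ribonucleotide reductase, which makes the DNA precursors and is limited to S phase. Its level was tight in unstimulated cultures, at 60.7, 61.6, 61.1, 60.7 and 63.5 CPM. It was 68.5, 69.7, 77.7, 72.2 and 72.8 CPM at 30 ng/ml and 65.7, 73.8, 77.1, 74.9 and 71.9 CPM at 100 ng/ml, again without overlap of the 10 stimulated and the 5 unstimulated cultures. *Rrm2* rose by the same amount at both concentrations, with a log2 fold change of 0.23 ± 0.05 (SE; FDR = 0.0058) at 30 ng/ml and 0.24 ± 0.05 (SE; FDR = 0.0031) at 100 ng/ml. The large subunit gene *Rrm1*, whose product is long-lived, had log2 fold changes of 0.009 (FDR = 0.93) and 0.03 (FDR = 0.65).

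*Mcm2*, a subunit of the replicative MCM helicase, had 48.3, 49.0, 51.3, 52.5 and 48.8 CPM in unstimulated cultures, 49.9, 54.1, 59.9, 56.3 and 57.9 CPM at 30 ng/ml and 59.3, 54.9, 62.7, 58.7 and 57.8 CPM at 100 ng/ml. The groups did not overlap at 100 ng/ml, and replicate 1 at 30 ng/ml lay within the unstimulated range. The log2 fold change was 0.23 ± 0.05 (SE; FDR = 0.0074) at 100 ng/ml and 0.15 ± 0.05 (SE; FDR = 0.067) at 30 ng/ml. The median level in TPM did not rise in the same way, with 30.7 TPM in unstimulated cultures and 29.7 TPM at 100 ng/ml. A transcript of 273 bases, annotated as a target of nonsense-mediated decay, took a median of 0.937% of the *Mcm2* reads in unstimulated cultures and 0% at 100 ng/ml. Its part in the TPM values was not tested. With counts rebuilt from TPM, the log2 fold change of *Mcm2* at 100 ng/ml was 0.05 and was not called (FDR = 0.80).

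The other MCM subunits did not pass the test: *Mcm5* and *Mcm7* came closest at 100 ng/ml, at 0.19 (FDR = 0.052) and 0.13 (FDR = 0.051) on the log2 scale, followed by *Mcm3* at 0.14 (FDR = 0.17), *Mcm6* at 0.10 (FDR = 0.27) and *Mcm4* at 0.02 (FDR = 0.76). *Mcm7* had no overlap between 100 ng/ml (55.4 to 59.9 CPM) and unstimulated cultures (51.3 to 54.5 CPM). With TMM factors all 6 MCM genes were positive at both concentrations, down to 0.0055 for *Mcm6* at 30 ng/ml.

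*Uhrf1*, which brings DNA methylation to newly copied DNA, had 51.5, 52.1, 52.05, 55.8 and 53.3 CPM in unstimulated cultures. Its level was 50.5, 60.0, 63.6, 60.8 and 57.3 CPM at 30 ng/ml and 59.0, 57.8, 60.5, 58.8 and 62.5 CPM at 100 ng/ml. All cultures with 100 ng/ml were above the unstimulated ones, and replicate 1 at 30 ng/ml was below them. This gave a log2 fold change of 0.17 ± 0.05 (SE; FDR = 0.041) at 100 ng/ml and 0.14 ± 0.05 (SE; FDR = 0.10) at 30 ng/ml.

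*Gins2*, a subunit of the GINS complex that completes the helicase, had 18.1, 18.8, 20.8, 18.6 and 18.8 CPM in unstimulated cultures, 17.8, 19.7, 21.9, 20.0 and 20.6 CPM at 30 ng/ml and 24.2, 20.1, 21.8, 22.1 and 21.4 CPM at 100 ng/ml. The log2 fold change was 0.21 ± 0.06 (SE; FDR = 0.039) at 100 ng/ml and 0.07 ± 0.06 (SE; FDR = 0.53) at 30 ng/ml, where it was -0.01 with counts rebuilt from TPM. A retained-intron transcript of 511 bases and another noncoding transcript of 473 bases took a median of 34.6% and 13.0% of the *Gins2* reads in unstimulated cultures, beside 45.0% for the coding transcript of 3900 bases.

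*Cdc6* was the least abundant of the 42 genes, with 6.82, 6.09, 5.70, 6.13 and 6.38 CPM in unstimulated cultures, 6.40, 7.75, 7.19, 6.94 and 8.03 CPM at 30 ng/ml and 8.18, 8.25, 8.91, 6.69 and 6.67 CPM at 100 ng/ml. Replicates 4 and 5 at 100 ng/ml lay within the unstimulated range, so the rise rested on the other 3 cultures. It differed by a log2 fold change of 0.31 ± 0.09 (SE; FDR = 0.043) at 100 ng/ml and 0.22 ± 0.09 (SE; FDR = 0.17) at 30 ng/ml. The calls of *Gins2*, *Uhrf1* and *Cdc6* at 100 ng/ml were kept under 12, 12 and 11 of 24 alternative settings.

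*Pcna*, the most abundant S-phase gene, did not pass the test. It had 148, 157, 161, 165 and 153 CPM in unstimulated cultures, 147, 152, 167, 151 and 155 CPM at 30 ng/ml and 159, 165, 158, 164 and 158 CPM at 100 ng/ml. The groups overlapped throughout, with log2 fold changes of -0.02 ± 0.04 (SE; FDR = 0.81) and 0.04 ± 0.04 (SE; FDR = 0.62). *Tyms*, thymidylate synthase, had a log2 fold change of 0.04 (FDR = 0.76) with the lower and 0.16 (FDR = 0.093) with the higher concentration.

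**Figure D3:**
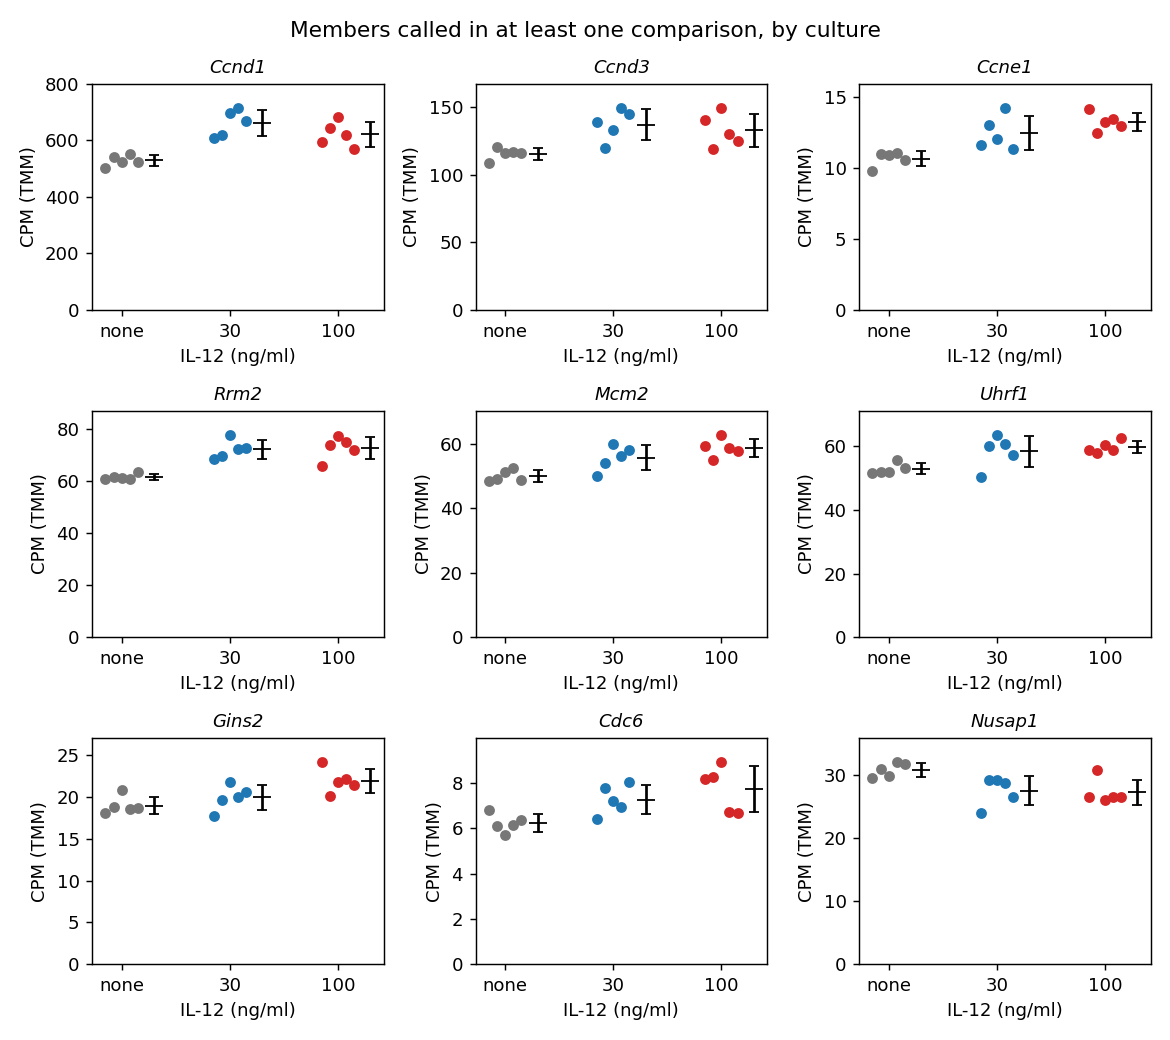
CPM of the 9 genes called in at least 1 comparison, with 1 point per culture in replicate order and the mean ± SD of the 5 cultures beside them; axes start at 0. For *Ccnd1*, *Ccne1* and *Rrm2* all 10 stimulated cultures lie above the 5 unstimulated ones, and for *Nusap1* most lie below.

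Among the mitotic genes, *Nusap1* (ENSMUSG00000027306, GRCm39 chr2:119448779-119481725, plus strand), which binds spindle microtubules, was the exception to the lack of calls. It had 29.5, 30.9, 29.8, 32.0 and 31.8 CPM in unstimulated cultures, 24.0, 29.1, 29.2, 28.7 and 26.5 CPM at 30 ng/ml and 26.5, 30.7, 25.99, 26.5 and 26.4 CPM at 100 ng/ml. All cultures with 30 ng/ml lay below the unstimulated ones, and at 100 ng/ml all but replicate 2. For the mean of both concentrations, *Nusap1* fell by 0.17 ± 0.05 on the log2 scale (SE; FDR = 0.037), while neither concentration alone passed the test (-0.16, FDR = 0.10, and -0.18, FDR = 0.064). The call was kept under 12 of 23 alternative settings.

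*Mki67* (Ki-67), the common marker of cycling cells, had 174, 147, 158, 162 and 176 CPM in unstimulated cultures, 131, 159, 143, 153 and 133 CPM at 30 ng/ml and 139, 177, 156, 141 and 166 CPM at 100 ng/ml. Its values overlapped between all groups, and the log2 fold changes of -0.18 ± 0.07 (SE; FDR = 0.13) and -0.07 ± 0.07 (SE; FDR = 0.59) did not pass the test. *Cdk1*, the kinase that drives mitosis, had 50.8, 56.4, 53.1, 57.0 and 50.1 CPM in unstimulated cultures, 48.9, 53.2, 54.2, 54.9 and 51.1 CPM at 30 ng/ml and 55.1, 53.3, 57.7, 57.2 and 53.2 CPM at 100 ng/ml. On the log2 scale it differed by -0.03 (FDR = 0.79) and 0.05 (FDR = 0.55). The groups overlapped for *Cdk1* too.

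None of the remaining mitotic genes (cyclins, spindle checkpoint proteins, kinases, kinesins and kinetochore proteins) was called in any comparison. At 100 ng/ml, log2 fold changes of the 19 mitotic genes without a call ran from -0.16 for *Ccnb2*, a B-type cyclin, to 0.15 for *Aurkb*, the Aurora kinase of the chromosomal passenger complex (FDR = 0.075). At 30 ng/ml they ran from -0.18 for *Mki67* to 0.09 for *Ccnb1*. *Bub1*, a spindle checkpoint kinase, lay at 18.7 to 20.4 CPM at 100 ng/ml, below every unstimulated culture (20.7 to 22.8 CPM), and at -0.12 (FDR = 0.20) and, at 30 ng/ml, -0.16 (FDR = 0.099) on the log2 scale.

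The inhibitors did not pass the test. *Cdkn1a*, the p53 target p21, had 160, 182, 189, 189 and 177 CPM in unstimulated cultures, 172, 164, 178, 180 and 168 CPM at 30 ng/ml and 184, 162, 188, 186 and 175 CPM at 100 ng/ml. It differed by -0.06 ± 0.05 (SE; FDR = 0.57) and -0.003 ± 0.05 (SE; FDR = 0.98) on the log2 scale. *Cdkn1b*, p27, had 87.8, 94.1, 79.6, 83.8 and 81.7 CPM in unstimulated cultures, 95.2, 92.1, 89.97, 79.9 and 96.7 CPM at 30 ng/ml and 75.5, 101.3, 79.5, 80.5 and 80.7 CPM at 100 ng/ml, with 0.09 ± 0.07 (SE; FDR = 0.52) and -0.03 ± 0.07 (SE; FDR = 0.82). *Cdkn2c*, p18, had 36.9, 38.4, 34.8, 38.97 and 35.9 CPM, then 37.4, 36.5, 38.1, 37.6 and 38.5 CPM, then 38.3, 37.9, 38.6, 38.2 and 35.4 CPM in the same order, with 0.02 ± 0.04 (SE; FDR = 0.78) and 0.03 ± 0.04 (SE; FDR = 0.74). The groups overlapped for all 3 inhibitors.

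Between 100 and 30 ng/ml, 0 of the 42 genes were called by edgeR (0.579% of all tested genes were, 0.501% higher and 0.0781% lower at 100 ng/ml). Under an unadjusted p of 0.05 there were 2 of the 42, beside 1944 of the 15360 tested genes. DESeq2 called 1, *Ccnd2*, which was lower at 100 ng/ml by 0.26 on the log2 scale in edgeR (FDR = 0.12). The S-phase genes were higher at 100 than at 30 ng/ml for 12 of 13 genes, with a median log2 difference of 0.08, beside 10 of 20 mitotic genes with a median of 0.005. No difference of an S-phase gene between the concentrations passed the test.

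The mean log2 level of each class was followed by culture, relative to the mean of unstimulated cultures. That of the S-phase genes was -0.04 to 0.05 in unstimulated cultures and 0.11 to 0.20 at 100 ng/ml, without overlap. At 30 ng/ml it was -0.06 in replicate 1 and 0.08 to 0.18 in the other 4. That of the mitotic genes was -0.04 to 0.09 in unstimulated cultures, -0.19 to 0.01 at 30 ng/ml and -0.11 to -0.01 at 100 ng/ml, with overlap of all groups. Replicate 1 at 30 ng/ml was the lowest culture of its group for 16 of 20 mitotic and 13 of 13 S-phase genes, and unstimulated replicate 4 the highest of its group for 14 of 20 mitotic and 8 of 13 S-phase genes. Without replicate 1 at 30 ng/ml, the calls at 30 ng/ml were again 4, with *Mcm2* and *Uhrf1* in place of *Ccnd3* and *Ccne1*, and the medians were 0.11 for the S-phase and -0.009 for the mitotic genes.

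**Figure D4:**
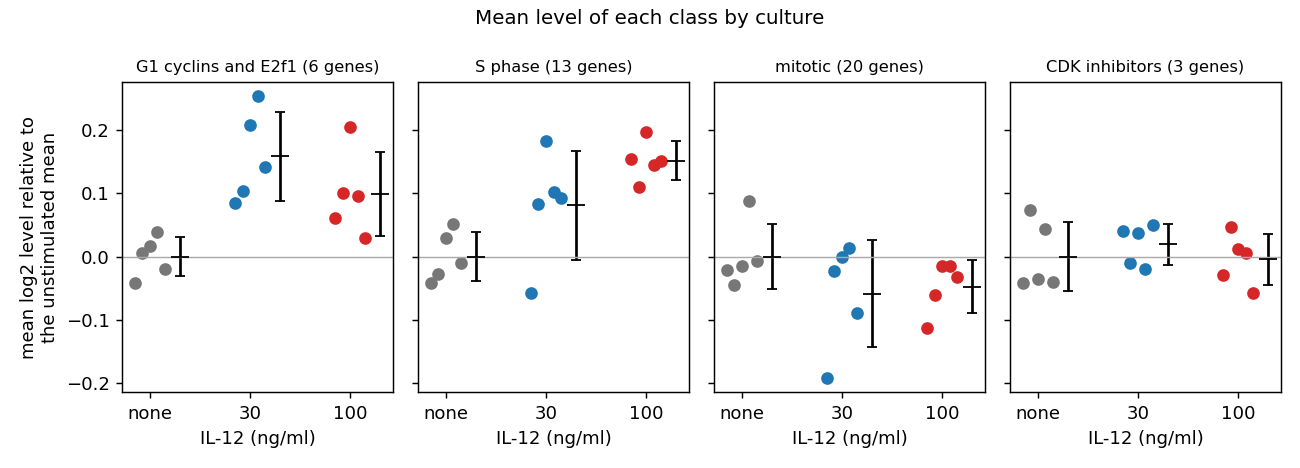
Mean log2 level of the genes of each class in each culture, relative to the mean of the unstimulated cultures, with the mean ± SD of each group. The S-phase genes at 100 ng/ml lie at 0.11 to 0.20, above all unstimulated cultures, and replicate 1 at 30 ng/ml is the lowest point in the mitotic and S-phase panels.

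Some markers of cell types differed between the groups as well. Over all tested genes, 4.16% were called higher and 3.71% lower at 30 ng/ml, and 5.83% higher and 3.93% lower at 100 ng/ml. The marker lists are short, so 1 call is a large share of a list. Of 13 microglia markers tested, 8 were lower at 30 ng/ml (61.5%, median log2 fold change -0.42) and 0 at 100 ng/ml (median -0.12). Their sum was 6596 to 8275 TPM at 30 ng/ml and 7937 to 10426 TPM at 100 ng/ml, lowest of all in replicate 1 at 30 ng/ml (6596 TPM) and highest in unstimulated replicate 4 (11697 TPM), the cultures that also had the lowest and the highest mitotic level. The same 2 cultures were the opposite extremes for astrocyte markers (5310 TPM, the highest, and 3841 TPM, the lowest). Neuronal markers were likewise highest in the first (250 TPM) and lowest in the second (182 TPM). From the lowest to the highest microglia sum, the mitotic level at 30 ng/ml was -0.19, -0.09, -0.02, 0.01 and -0.0002 (replicates 1, 5, 2, 4 and 3). In unstimulated cultures it was -0.04, -0.02, -0.007, -0.01 and 0.09 (replicates 2, 1, 5, 3 and 4). At 100 ng/ml it was -0.02, -0.06, -0.11, -0.03 and -0.01 (replicates 3, 2, 1, 5 and 4). This order is given for microglia alone, and a relation to the mitotic level was not tested. At 100 ng/ml, replicate 3 had the lowest microglia sum of its group (7937 TPM) and the highest S-phase level of all cultures (0.20). Astrocyte markers summed to 4551 to 5310 TPM at 30 ng/ml and 4263 to 4718 TPM at 100 ng/ml, with 3 of 11 higher at 30 ng/ml and 1 of 11 higher and 1 lower at 100 ng/ml. Of 8 oligodendrocyte markers, 3 were lower at 100 ng/ml, with sums of 5952 to 7269 TPM, and 0 at 30 ng/ml (6684 to 8261 TPM). Their log2 fold changes were negative for 7 and positive for 1 with either concentration (medians -0.26 for the higher and -0.12 for the lower). Of 8 markers of oligodendrocyte precursors, 1 was lower at 30 ng/ml, with sums of 346 to 377 TPM at 100 ng/ml and 374 to 423 TPM at 30 ng/ml against 330 to 415 TPM in unstimulated cultures. Granule cell progenitors, the dividing neuronal precursors of the cerebellum, were hardly represented by their defining gene *Atoh1*, which lay between 0 and 0.17 TPM. Of 6 of their markers tested, 1 was higher at 100 ng/ml and 0 at 30 ng/ml, and the 8 markers summed to 89.3 to 104 TPM in unstimulated cultures, 98.5 to 118 TPM at 30 ng/ml and 89.0 to 108 TPM at 100 ng/ml, most of it *Zic1*. Of 14 neuronal markers tested, 1 was higher and 1 lower at 100 ng/ml and 1 higher and 2 lower at 30 ng/ml. Most neuronal markers leaned down without a call: 11 had a negative and 3 a positive log2 fold change with either concentration. The neuronal medians were -0.49 for the lower and -0.28 for the higher concentration. Their sums overlapped between the groups, with 182 to 241 TPM in unstimulated cultures, 206 to 250 TPM for the lower and 202 to 234 TPM for the higher concentration. Fibroblast markers had 2 of 8 higher at 100 ng/ml and 0 called at 30 ng/ml, endothelial markers 1 of 5 lower at either, and T and NK cell markers 0 of 2 called. The part of these cell types in the values of the cell cycle genes was not tested.

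Further genes of the same phases, none of them among the 42, were read as lists. Of 50 further S-phase genes, 13 rose and 0 fell at 100 ng/ml (26%, against 9.77% of all tested genes; median log2 fold change 0.12). The lower concentration had 3 that rose and 0 that fell (6.00%, below the 7.87% of all tested genes; median 0.07), and 10 rose and 0 fell for the mean of both (20.0%, against 11.9%; median 0.10). By the lowest FDR for the mean of both, they were led by *Rpa2*, a subunit of the protein that coats single-stranded DNA (log2 fold change 0.31, FDR = 0.0050, at the higher and 0.25, FDR = 0.021, at the lower concentration). Next came *Ung*, which removes uracil from DNA (0.39, FDR = 0.016, and 0.38, FDR = 0.020), and *Pole*, the leading-strand polymerase (0.22, FDR = 0.0078, and 0.13, FDR = 0.10). *Chaf1b*, a chromatin assembly factor (0.29, FDR = 0.012, and 0.19, FDR = 0.10), and *Dut*, which clears dUTP (0.26, FDR = 0.0061, and 0.11, FDR = 0.23), followed.

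Of 60 further mitotic genes, 0 were called at 100 ng/ml (6 under an unadjusted p of 0.05, beside 3933 of the 15360 tested genes). At 30 ng/ml 1 rose and 2 fell, and likewise for the mean of both (5% each, below the 7.87% and 11.9% of all tested genes). The medians were -0.01 at 100 ng/ml, -0.02 at 30 ng/ml and -0.01 for the mean of both. *Ckap2*, a spindle protein, rose by 0.24 at 30 ng/ml (FDR = 0.017). *Iqgap3*, a scaffold protein, fell by 0.24 (FDR = 0.031) and *Ttk*, the checkpoint kinase Mps1, fell by 0.25 (FDR = 0.034) at 30 ng/ml, and *Cenpa*, the centromeric histone, fell by 0.19 for the mean of both (FDR = 0.030). TTTGAA was in the window of 35 of 50 further mitotic genes (70.0%) and 9 of 37 further S-phase genes (24.3%). One or the other E2F string was in 8 of 37 further S-phase genes (21.6%) and 4 of 50 further mitotic genes (8%).

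Of 22 further genes of G1 and the retinoblastoma pathway, 0 were called at either concentration. Under an unadjusted p of 0.05, 2 of them passed at 100 ng/ml and 4 at 30 ng/ml, beside 3933 and 3482 of the 15360 tested genes. For the mean of both, 1 rose (4.55%, below the 11.9% of all tested genes): *Cdk2*, the partner of cyclin E, by 0.16 on the log2 scale (FDR = 0.046). Of 25 further cell cycle inhibitors and p53 targets, 1 rose and 3 fell at 100 ng/ml (16.0%, against 9.77% of all tested genes), and 1 rose and 4 fell at 30 ng/ml (20.0%, against 7.87%). For the mean of both, 3 rose and 4 fell (28.0%, against 11.9%). *Gadd45g*, a growth arrest and stress gene, had 33.4 ± 1.99 CPM (SD, n = 5) in unstimulated cultures. It rose to 47.5 ± 4.14 CPM (SD, n = 5) with the lower and to 43.7 ± 4.44 CPM (SD, n = 5) with the higher concentration (log2 fold changes 0.51, FDR = 0.0005, and 0.39, FDR = 0.0024). *Sesn1*, a sestrin, fell by 0.14 (FDR = 0.013) and 0.15 (FDR = 0.0095), in the same order. *Zmat3*, a p53 target, fell by 0.57 (FDR = 0.0054) at 100 ng/ml and had -0.31 (FDR = 0.12) at 30 ng/ml. *Plk2* and *Btg2*, which are induced by p53 and by other stimuli, fell by 0.27 (FDR = 0.017) and 0.22 (FDR = 0.019) at 30 ng/ml and had -0.20 (FDR = 0.063) and -0.16 (FDR = 0.063) at 100 ng/ml. *Trp53*, which encodes p53, and *Fas*, a death receptor, were named after their values were seen: they rose by 0.17 (FDR = 0.044) and 0.14 (FDR = 0.039) for the mean of both and passed at neither concentration alone. The list thus held changes in both directions, with medians of 0.002 at 100 ng/ml and -0.03 at 30 ng/ml.

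**Figure D5:**
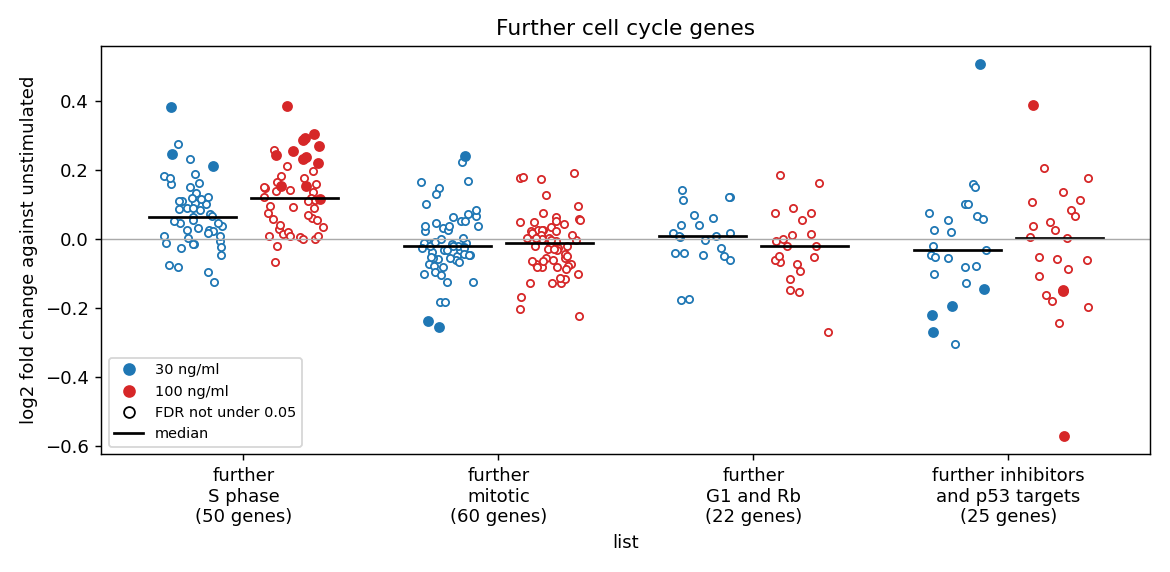
Log2 fold changes against unstimulated cultures of the genes of 4 further cell cycle lists at 30 ng/ml (blue) and 100 ng/ml (red); each point is a gene, filled where the FDR is under 0.05, and lines are medians. Of the 50 further S-phase genes 13 are filled and above 0 at 100 ng/ml, and the medians of the other 3 lists lie within 0.04 of 0.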

How the data were processed

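RNA of 15 cultures was sequenced by the authors as stranded poly(A) libraries. The methods and the submitters' processing notes name FastQC 0.10.0, STAR 2.7.8a, featureCounts and GRCm39. The deposited values used here are instead estimated counts and TPM per transcript, in the layout of a pseudoalignment program, whose name and use of strand are not given in the sources used here. The estimated counts of each transcript were summed to genes with GENCODE M39 (99.0% of transcripts matched, and 0.677% to 0.712% of reads were left out) and rounded. Reads shared between paralogs, pseudogenes or overlapping genes were divided by that program, and a CPM does not correct for a shift between long and short transcripts.

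Genes reaching 1 CPM in 2 or more cultures were scaled by TMM factors and tested in 1 fit of the 3 groups (R 4.3.3, edgeR 4.0.16, limma 3.58.1; DESeq2 1.42.0 as an alternative), with Benjamini-Hochberg adjustment over 15360 genes and a call at an FDR under 0.05. The scripts were tested on simulated data. Class means used log2 CPM with a prior count of 2. Python 3.11.15 searched the promoters and drew the plots.

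The 42 genes, the further lists and the markers (one microglia symbol was not found) were chosen with earlier results of these data known. Values in every culture are given for genes called in any comparison, for *Mki67*, for the inhibitors and for the gene with the highest level in each class. From each further list, up to 5 called genes with the lowest FDR for the mean of both concentrations are named. *Bub1*, *Mcm7* and the remaining genes named for their place in a range were picked after their values were seen. Promoters were printed by lowest FDR, with *Cdk1* added. The alternatives changed the tool (DESeq2, likelihood-ratio test), the scaling (RLE, library size), the filter (none, or 10 counts in all cultures), the groups in the fit, the counts (rebuilt from TPM), the threshold or the model (replicate number as a term), or left out 1 culture.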

Additional observations from a re-analysis of the deposited data

Results flagged for a closer look

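In 57 groups of 5 cultures (the genes given by culture and the class means), 1 culture stood far from the other 4 by Dixon's criterion in 5 groups, and chance flags about 1 in 20 groups. *Nusap1* had 30.7 CPM in replicate 2 at 100 ng/ml, with the next highest at 26.5 CPM. *Cdkn1b* had 101.3 CPM in the same culture, with the next highest at 80.7 CPM. *Gins2* had 20.8 CPM in unstimulated replicate 3, with the next highest at 18.8 CPM. *Cdkn2c* had 35.4 CPM in replicate 5 at 100 ng/ml, with the next lowest at 37.9 CPM. The mean log2 level of the mitotic genes was 0.0871 in unstimulated replicate 4, with the next highest at -0.0071. That culture also had the highest sum of microglia markers (11697 TPM) and the lowest sums of astrocyte (3841 TPM) and neuronal markers (182 TPM). The part of these cell types was not tested.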

How the results depend on the processing

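Of the class medians, each kept its sign at both concentrations for the S-phase, mitotic and G1 genes under every setting run, but their sizes moved. With counts rebuilt from TPM, the median of the S-phase genes was 0.02 at 30 ng/ml (0.07 in the report), 0.11 at 100 ng/ml (0.16) and 0.06 for the mean of both (0.11), and that of the G1 genes at 30 ng/ml 0.25 (0.19). The S-phase median at 30 ng/ml was 0.04 without replicate 3 of that group and 0.11 without replicate 1. The mitotic median at 30 ng/ml was -0.03 with library size alone and -0.009 without replicate 1. Counts were lowest for *Cdc6*, at 156 reads in 1 culture, and its standard error of 0.09 was among the largest of the 42 genes. The number called at 100 ng/ml (7) was 11 with DESeq2 and with the likelihood-ratio test, 4 with all genes unfiltered and 4 with counts rebuilt from TPM. At 30 ng/ml (4) it was 2 with counts rebuilt from TPM, for the mean of both (8) it was 5, and between the concentrations (0) it was 1 with DESeq2 and with the likelihood-ratio test. With a log2 fold change of 0.5 or more and p not above 0.01, it was 0 in each comparison. With library size alone it was 10, 6, 0 and 10 in the order 100 ng/ml, 30 ng/ml, between both, and mean of both.

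When 1 culture was left out, the number called was 4 to 12 at 100 ng/ml, 2 to 6 at 30 ng/ml, 0 to 1 between the concentrations and 5 to 12 for the mean of both. At 100 ng/ml it was 12 without replicate 2 of that group, and 4 without its replicate 1 or without unstimulated replicate 2 or 5. At 30 ng/ml it was 2 without replicate 4 of that group or unstimulated replicate 1 or 3, and for the mean of both it was 5 without unstimulated replicate 2, 3 or 5 and 12 without replicate 2 at 100 ng/ml. Between the concentrations it was 1, *Ccnd2*, without replicate 3 at 100 ng/ml. The calls of *Rrm2* and *Ccnd1* were kept at both concentrations under all 24 settings run at an FDR of 0.05, and that of *Mcm2* at 100 ng/ml under 23.

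Values that changed sign were near 0 and uncalled. *Cdkn1a* at 100 ng/ml was 0.0057 with library size alone, 0.0046 without a filter, 0.00020 with 10 counts in every culture, and -0.043 to 0.031 with 1 culture left out. *Gins2* at 30 ng/ml was -0.0085 and *Pcna* for the mean of both -0.0027 with counts rebuilt from TPM. With 1 culture left out, *Cdkn1b* was -0.11 to 0.0034 at 100 ng/ml and -0.012 to 0.064 for the mean of both, *Cdk1* -0.011 to 0.035 and *Pcna* -0.013 to 0.026 for the mean of both. The cause was not tested.

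With the replicate number as an additive term (replicate block), 5 genes were called at 100 ng/ml, 3 at 30 ng/ml, 0 between the concentrations and 7 for the mean of both. Over the 2000 genes with the most variable deviations, the numbers showed no general pairing of the cultures. Of 15 pairs of cultures with the same number, 2 had deviations correlated above 0.1 (median 0.0033, against 0.0013 for other pairs), the highest being 0.27. Such genes can be noisy, so this does not exclude a shared preparation.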
